A study of Homo sapiens with 39 samples.

Results

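CCDC80, 1 of 18132 genes measured on an Affymetrix 3' array, was followed in U937 cells by all 6 probe sets, of 49293, that the platform's probe-to-gene table assigns to it. The gene was selected on its higher level in cells cultured with the oligonucleotide Pu27 than in untreated cells in these same arrays, so every difference that involves Pu27 is given for CCDC80 as a description, without a test. U937 is a human histiocytic lymphoma line with features of monocytes. The 39 arrays form 13 groups of 3: untreated cells at 0, 24, 48 and 72 h, and cells cultured for 24, 48 or 72 h with 10 µM of Pu27, Pu9- or Pu5-. All 3 oligonucleotides are G-rich DNA strands related to a guanine-rich element of the MYC promoter. Pu27 is 27 nucleotides long with 20 guanines, Pu9- is 20 nucleotides long with 15 guanines and equals positions 7 to 26 of Pu27, and Pu5- is 42 nucleotides long with 31 guanines. The groups share 1 cell line, the control cells received no oligonucleotide of any kind, and no oligonucleotide without guanine runs was analysed here. The labels speak of 3 repeat experiments without further detail, and each p-value therefore measures only how far these samples spread.

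CCDC80 encodes a secreted protein that associates with the extracellular matrix. In mice it is also known as Urb, is expressed in adipose tissue and takes part in adipocyte differentiation in culture. In human tumour lines it is known as DRO1, a gene whose expression is often low in transformed cells. It shares the DUDES domain with the secreted proteins SRPX and SRPX2. Its usual sources are fibroblasts and adipocytes, and it is not a classical marker of monocytes.

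The gene lies on the minus strand of chromosome 3, from 112596797 to 112641143 (44347 bp, RefSeq, GRCh38.p14). The 250 bases upstream of its annotated start, chr3:112641144-112641393, are shown because the oligonucleotides are rich in guanine runs, and runs of 3 or more G or of 3 or more C are in capitals. The sequence is given 5′ to 3′ on the gene's strand, from RefSeq.
CCDC80 upstream: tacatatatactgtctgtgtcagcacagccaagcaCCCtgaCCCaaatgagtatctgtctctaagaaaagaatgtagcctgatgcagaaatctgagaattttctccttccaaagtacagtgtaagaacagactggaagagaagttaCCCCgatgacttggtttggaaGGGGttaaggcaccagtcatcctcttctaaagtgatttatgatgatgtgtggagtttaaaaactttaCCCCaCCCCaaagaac
These bases hold 6 such runs, where the median over the upstream windows of 35116 promoters was 11, and 42.0% of them are G or C, where the median was 58.0%. A pattern of 4 runs of GGG separated by loops of 1 to 7 bases, the letters by which G-quadruplexes are often searched, had 0 matches on either strand, and 23.5% of all promoters held it. The E-box CACGTG, which MYC and MAX can bind, had 0 matches (6.3% of all promoters), as had TATAAA (10.7%), CCAAT (32.0%) and TGACTCA (4.2%), all searched on both strands. A match or its absence describes only the letters of this window.

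CCDC80 was dim on these arrays, and its 6 probe sets did not show the same pattern. The brightest by its mean over all arrays, 11758224_s_at, averaged 5.83 in log2 units, with 48.9% of all probe sets below it. The other means were 4.94 for 11748618_a_at, 4.72 for 11716932_a_at, 4.42 for 11716934_a_at, 4.39 for 11751791_a_at and 3.65 for 11716933_a_at. Values of different probe sets are not comparable as amounts of RNA, and the array medians lay between 5.82 and 5.94. Group means of 11758224_s_at ran from 5.12 to 7.04, those of 11716934_a_at from 4.0 to 5.35, those of 11751791_a_at from 3.96 to 5.27 and those of 11748618_a_at from 4.72 to 5.63. The group means of 11716932_a_at (4.64 to 4.92) and 11716933_a_at (3.54 to 3.82) spanned only 0.28 each. The suffix _a_at marks probe sets that match transcripts of 1 gene, and _s_at marks probe sets that match several transcripts and may include those of another gene. The probe table gives CCDC80 as the only gene of all 6. The probes' positions within the transcripts were not analysed here.

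**Figure D1:**
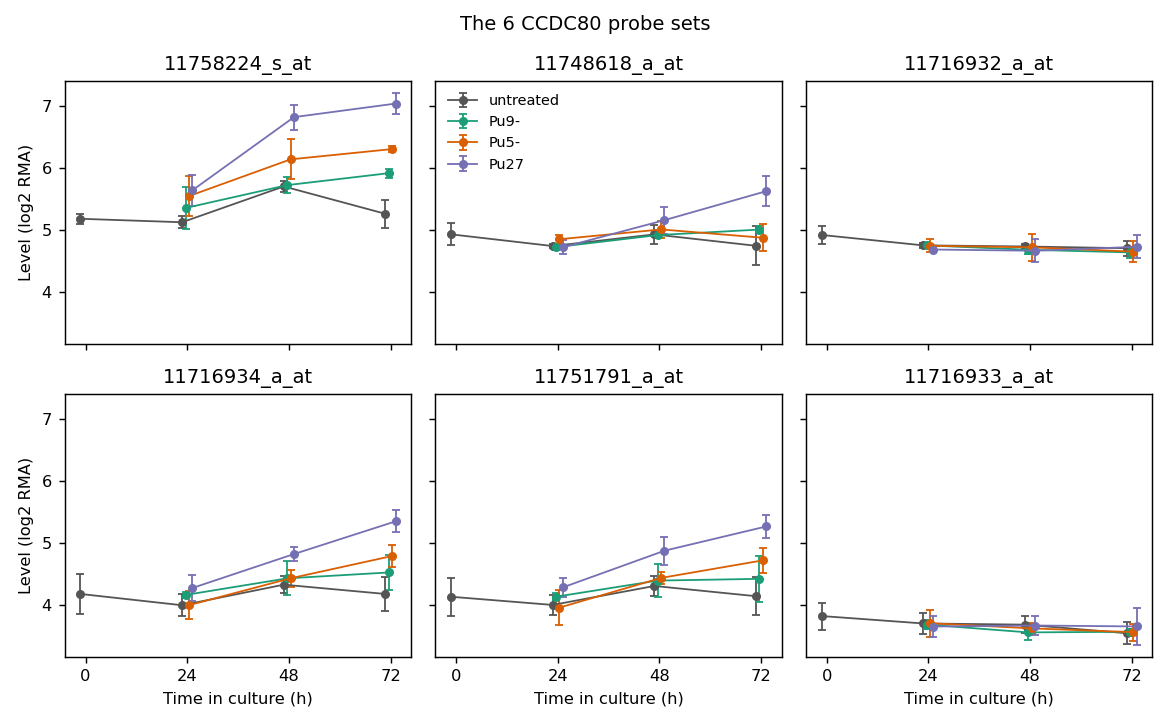
Level of each of the 6 CCDC80 probe sets (log2 RMA value, vertical axis) against time in culture (h, horizontal axis), with points for the mean of 3 arrays and bars for 1 SD. In 4 probe sets the Pu27 group at 72 h is the highest of the 13 groups, and the group means of 11716932_a_at and 11716933_a_at span only 0.28.

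In 11758224_s_at the 3 lowest group means were those of untreated cells at 24, 0 and 72 h, and untreated cells at 48 h were higher than all 3 oligonucleotide groups at 24 h by their means. At 0 h the 3 arrays read 5.09, 5.22 and 5.23, and at 24 h they read 5.02, 5.16 and 5.20. At 48 h they read 5.74, 5.61 and 5.76, and at 72 h 5.51, 5.20 and 5.07. All 3 arrays at 48 h lay above every other untreated array, and the groups at 0, 24 and 72 h overlapped. Against 0 h the difference was 0.52 ± 0.16 (SE) at 48 h, with 3 of 3 arrays above all arrays of 0 h, and limma's adjusted p over all probe sets was 0.0564. The differences from 0 h at 24 h (-0.06, adjusted p = 0.86) and at 72 h (0.08, adjusted p = 0.818) did not pass the threshold of 0.05 either. Time in culture moved many other probe sets: 26.2% of all were called at 24 h, 3.86% at 48 h and 12.5% at 72 h, while none of the 6 CCDC80 probe sets was. The call at 48 h depended on the setting, with an adjusted p from 0.0398 to 0.0886 over the settings that kept all arrays.

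**Figure D2:**
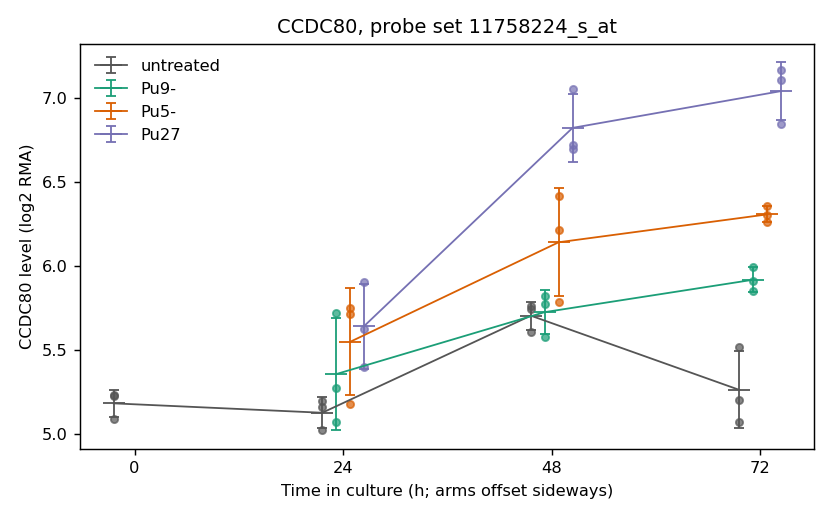
Level of CCDC80 by probe set 11758224_s_at (log2 RMA value, vertical axis) against time in culture (h, horizontal axis, arms offset sideways), with each array as a point, the mean of 3 arrays as a dash and bars for 1 SD. At 72 h the arrays of the 4 arms do not overlap, in the order untreated, Pu9-, Pu5- and Pu27.

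With Pu5-, CCDC80 rose in 11758224_s_at. In bulk RNA, more expressing cells and more CCDC80 RNA per cell cannot be told apart. The 3 arrays read 5.75, 5.18 and 5.71 at 24 h, 5.79, 6.42 and 6.22 at 48 h, and 6.35, 6.30 and 6.26 at 72 h. At 48 and 72 h all 3 arrays lay above the highest of the 12 untreated arrays (5.76), and at 24 h 2 of 3 lay above the untreated arrays of that time. The difference from untreated cells at 72 h was 1.04 ± 0.16 (SE, n = 3 against 3), a 2.06-fold level, with limma's adjusted p = 6.4e-04. The mean of the 3 time-matched differences was 0.63 ± 0.09, a 1.55-fold level, with limma's adjusted p = 4.3e-04. The differences at 24 h (0.42, adjusted p = 0.799) and 48 h (0.44, adjusted p = 1) did not pass. These tests share the untreated arrays with the comparison that chose the gene. In the fit across all probe sets, 1 of the 6 CCDC80 probe sets was called at 72 h and 1 for the mean of times, where 0.357% and 0.114% of all probe sets were called. None was called at 24 h or 48 h, where 0.0101% and 0.0142% of all were. An exact two-sided permutation test of the mean difference, with labels permuted within each time, gave p = 0.0005 (0.0015 adjusted over the 3 permutation tests made), where 0.00025 is the smallest that the 8000 arrangements can give. None of the 3 permutation tests kept same-numbered arrays together. Over all probe sets, same-numbered Pu5- and untreated arrays correlated in their deviations from group means by -0.02 to 0.27 at 24 h. These correlations were 0.19 to 0.47 at 48 h and 0.15 to 0.35 at 72 h. Leaving out any 1 array kept both calls, but without all arrays numbered 3 the adjusted p was 0.448 at 72 h and 0.6 for the mean. Without all arrays numbered 2 it was 0.0943 at 72 h, and fitting the compared groups alone gave 0.0955 there.

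With Pu9-, the level in 11758224_s_at was closer to that of untreated cells. The 3 arrays read 5.07, 5.72 and 5.28 at 24 h, 5.58, 5.77 and 5.82 at 48 h, and 5.99, 5.91 and 5.85 at 72 h. At 72 h all 3 lay above the 12 untreated arrays, and at 24 and 48 h they overlapped the untreated arrays of the same time. At 72 h CCDC80 rose by 0.66 ± 0.16 (SE, n = 3 against 3), a 1.58-fold level, with limma's adjusted p = 0.0386. At 24 and 48 h the differences were 0.23 and 0.02 (adjusted p = 1 for each), and the mean of times was 0.30 ± 0.09 (adjusted p = 0.332). The exact permutation test of the mean gave p = 0.016 (0.016 adjusted over the 3 tests), again with untreated arrays shared with the comparison that chose the gene. Of the 6 CCDC80 probe sets 1 was called at 72 h, where 0.759% of all probe sets were. None was called at 24 h (0.0101% of all), at 48 h (0.0101%) or over the times' mean (0.0264%). The call at 72 h was lost when any of 4 of the 6 arrays was left out, with an adjusted p of 0.113 and 0.198 without untreated replicates 2 and 3 and of 0.322 and 0.163 without Pu9- replicates 2 and 3. It was also lost in a fit of the compared groups alone (0.33) and without all arrays numbered 2 (0.665) or 3 (0.934).

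Pu9- and Pu5- were compared with each other on arrays that the choice of the gene did not use. The choice of 11758224_s_at as the brightest probe set over all arrays did use them. In 11758224_s_at Pu9- was lower than Pu5- by 0.19, 0.42 and 0.39 at 24, 48 and 72 h, as signed differences -0.19, -0.42 and -0.39. At 72 h the highest Pu9- array (5.99) lay below the lowest Pu5- array (6.26), and at 24 and 48 h the arrays overlapped. The mean of the 3 differences was -0.33 with a 95% interval of -0.52 to -0.15, and limma's adjusted p over all probe sets was 1 for each time and for the mean. Taken as a single value, the mean difference in 11758224_s_at had an exact permutation p of 0.012 (0.016 adjusted over the 3 tests). The adjustment did not cover the choice of probe set, and the test did not keep same-numbered arrays together. Over all probe sets, same-numbered Pu9- and Pu5- arrays correlated in their deviations from group means by 0.31 to 0.38 at 24 h. The correlations were 0.11 to 0.53 at 48 h and 0.29 to 0.52 at 72 h. The other CCDC80 probe sets had no permutation test. Their mean differences lay between -0.06 (11751791_a_at) and -0.01 (11716932_a_at). The difference over the mean of times therefore rests on 11758224_s_at. At 72 h the differences of the other probe sets ran from -0.30 (11751791_a_at) to 0.13 (11748618_a_at). At that time 11716934_a_at (-0.27) was, like 11751791_a_at, lower with Pu9- than with Pu5-. Very few probe sets separated these oligonucleotides: 0% of all were called at 24 h (4.13% had an unadjusted p under 0.05), 0.00203% at 48 h, 0.0142% at 72 h and 0.00203% over the 3 times together. None of the CCDC80 probe sets was among them.

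The differences of Pu9- and Pu5- from untreated cells were larger at 72 h than at 24 h, but their change over time did not pass a test, and none was made for Pu27. limma's F test across the 3 times gave F = 4.17 and an adjusted p of 0.87 for Pu9- (0.00203% of all probe sets called), and F = 5.04 and an adjusted p of 1 for Pu5- (0.0122% called). From 24 to 72 h the mean level in this probe set moved by 0.56 with Pu9-, by 0.76 with Pu5-, by 1.40 with Pu27 and by 0.14 in untreated cells.

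Pu27 gave the highest levels in 11758224_s_at, which is what the gene was chosen for. The 3 arrays read 5.62, 5.90 and 5.40 at 24 h, 6.72, 7.05 and 6.69 at 48 h, and 6.85, 7.17 and 7.11 at 72 h. All 6 arrays at 48 and 72 h (lowest 6.69) lay above the other 33 arrays (highest 6.42), while at 24 h the Pu27 arrays lay above the untreated arrays of that time and overlapped those of Pu9- and Pu5-. The difference from untreated cells was 0.52 at 24 h, 1.12 at 48 h and 1.78 at 72 h, each ± 0.16 (SE), which are 1.43-fold, 2.17-fold and 3.43-fold levels.

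Set beside the other oligonucleotides at the same dose and times, all 3 pairs were compared. Pu27 minus Pu9- was 0.29, 1.10 and 1.12 at 24, 48 and 72 h, with a mean of 0.84 ± 0.09. Pu27 minus Pu5- was 0.09, 0.68 and 0.73, with a mean of 0.50 ± 0.09. These differences are descriptions, since Pu27 chose the gene. Along the order of all 13 group means, neighbouring groups overlapped in their arrays except at 2 steps, from Pu9- at 48 h to Pu9- at 72 h and from Pu5- at 72 h to Pu27 at 48 h.

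In 11716934_a_at and 11751791_a_at the 72 h means also ran in the order untreated, Pu9-, Pu5- and Pu27, but at 24 h Pu5- minus untreated was 0.00 and -0.04, against 0.42 in 11758224_s_at. In 11716934_a_at the untreated arrays at 72 h read 4.13, 3.93 and 4.48, those with Pu9- 4.41, 4.32 and 4.85, those with Pu5- 4.65, 4.99 and 4.74, and those with Pu27 5.50, 5.16 and 5.39. The Pu5- and Pu27 arrays lay above all untreated arrays, and the Pu9- arrays overlapped them. Pu5- minus untreated at 72 h was 0.61 ± 0.16 (limma adjusted p = 0.0927) and Pu9- minus untreated was 0.35 ± 0.16 (adjusted p = 0.37), and Pu27 minus untreated was 1.17 ± 0.16. In 11751791_a_at the untreated arrays at 72 h read 4.05, 3.89 and 4.49, those with Pu9- 4.21, 4.20 and 4.85, those with Pu5- 4.63, 4.95 and 4.59, and those with Pu27 5.47, 5.09 and 5.24. The differences from untreated cells there were 0.28 for Pu9- (adjusted p = 0.575), 0.58 for Pu5- (adjusted p = 0.186) and 1.12 for Pu27, each ± 0.18. These 2 probe sets are not independent readings. The correlation of their deviations from the group means over the 39 arrays was 0.96, against -0.27 to 0.52 for every other pair.

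In 11748618_a_at only Pu27 stood apart at 72 h. Its arrays read 5.71, 5.35 and 5.82, the untreated arrays 5.11, 4.59 and 4.54, those with Pu9- 5.02, 4.95 and 5.06, and those with Pu5- 4.89, 4.65 and 5.08. Pu27 minus untreated was -0.02, 0.23 and 0.88 at 24, 48 and 72 h, each ± 0.13. Pu9- and Pu5- differed from untreated cells at 72 h by 0.26 (limma adjusted p = 0.424) and 0.13 (adjusted p = 0.882), and the arrays overlapped.

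The remaining 2 probe sets did not follow the others. 11716933_a_at was the dimmest CCDC80 probe set, with a mean of 3.65 and 15.4% of all probe sets below it. The median of the background control probe sets was 3.16, but their means ran from 2.48 to 10.32. Whether 11716933_a_at detected CCDC80 RNA was not tested. 11716932_a_at, with a mean of 4.72, was brighter than 11716934_a_at (4.42) and 11751791_a_at (4.39). In 11716932_a_at the Pu27 arrays at 72 h read 4.84, 4.83 and 4.51 and the untreated arrays 4.84, 4.63 and 4.65, a difference of 0.02 ± 0.11. In 11716933_a_at the Pu27 arrays at 72 h read 3.98, 3.58 and 3.40 and the untreated arrays 3.66, 3.64 and 3.34, a difference of 0.11 ± 0.13. In both, the highest group mean was that of untreated cells at 0 h (4.92 and 3.82). Over the 13 group means the correlation with 11758224_s_at was 0.95 for 11751791_a_at, 0.93 for 11716934_a_at, 0.83 for 11748618_a_at, -0.26 for 11716933_a_at and -0.47 for 11716932_a_at. The latter 2 had a correlation of 0.84 with each other. These correlations describe 13 points that share their arrays.

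**Figure D3:**
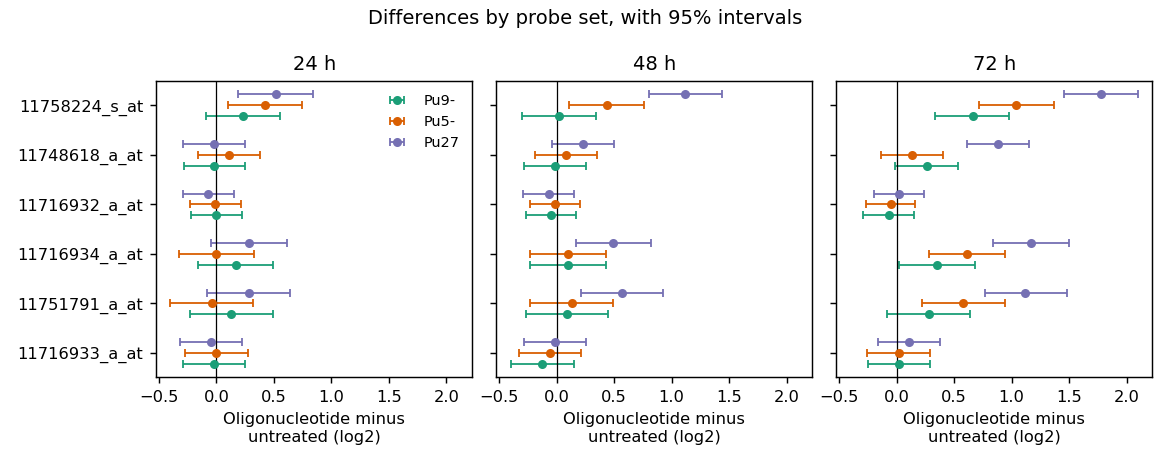
Difference of each oligonucleotide from untreated cells of the same time (log2, horizontal axis) for the 6 CCDC80 probe sets (vertical axis) at 24, 48 and 72 h, with points for the difference of means of 3 arrays and bars for 95% intervals from limma. At 72 h the Pu27 difference runs from 0.02 in 11716932_a_at to 1.78 in 11758224_s_at.

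Among 3452 genes with enough signal and range, those whose 13 group means were most like those of 11758224_s_at were ORC6, MS4A7, NATD1, MASTL and CD160, with Pearson correlations of 0.922, 0.907, 0.897, 0.893 and 0.877. ORC6 encodes a subunit of the origin recognition complex, MASTL a kinase needed for mitosis, MS4A7 a membrane protein of macrophages and CD160 a receptor of lymphocytes. At 72 h their levels in Pu27 and untreated cells were 10.60 and 10.13 for ORC6, 9.23 and 8.39 for MS4A7, 6.38 and 5.73 for NATD1, 8.71 and 8.12 for MASTL, and 8.06 and 6.61 for CD160. Their higher levels with the oligonucleotides at 72 h, by 0.03 (NATD1 with Pu9-) to 1.45 (CD160 with Pu27), follow largely from the choice by correlation. The most opposed were RBMX (-0.846), an RNA-binding protein, CIPC (-0.84), an inhibitor of the CLOCK protein, and ASPM (-0.808), a protein of the mitotic spindle. The correlations are descriptions over 13 groups that share a course in time. Over the 39 deviations from group means they were 0.38 for MASTL and -0.01 to 0.17 for the other 4 genes most alike.

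Over the mean of times, 3.25% of the 18132 genes were called with Pu27, each gene by its brightest probe set (2.39% of all probe sets), 0.0331% with Pu9- and 0.16% with Pu5-, and the counts in the lists of matrix, enzyme, adipocyte and Wnt genes lie near these shares. SRPX, which shares the DUDES domain of CCDC80, rose with Pu27 by 0.32 ± 0.07 over the mean of the 3 times (limma adjusted p = 0.00483). Over the same mean it differed by 0.17 with Pu9- (adjusted p = 0.481) and by 0.19 with Pu5- (adjusted p = 0.364). At 72 h alone SRPX read 6.90 in untreated cells and 7.46 with Pu27. SRPX2 differed with Pu27 by -0.07 ± 0.07 over the mean of times (adjusted p = 0.75). It was dim, with a mean of 3.79 and a highest group mean of 3.92, so the absence of a call says little. Of 41 extracellular matrix proteins 2 rose and 0 fell with Pu27. They were ECM1, a secreted glycoprotein (0.61 ± 0.10, adjusted p = 1.7e-04), and the proteoglycan SPOCK1 (0.29 ± 0.07, adjusted p = 0.0116), and the collagen chain COL4A2 differed by 0.19 (adjusted p = 0.112). The median difference of these 41 genes was 0.02, against 0.01 over all 18132 genes. Of 23 matrix crosslinking and processing enzymes 1 rose and 0 fell: MMP9, a gelatinase, by 0.94 ± 0.18 (adjusted p = 0.00211), with a median of 0.05 over the 23. These rises are relative to untreated cells of the same times. At 72 h MMP9 read 6.63 with Pu27 and 5.21 in untreated cells, below its highest group mean of 7.56. SPOCK1 read 7.12 and 6.54, below its highest of 7.58, and ECM1 read 7.41, its highest, and 6.64. The inhibitor TIMP1 and the lysyl hydroxylase PLOD1 differed by 0.15 and 0.14 and did not pass.

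With Pu27, 3.25% of all 18132 genes were called over the mean of times, so lists this short could hold no call at that share. None of the 20 adipocyte differentiation genes was called with Pu27 (median 0.01). Among them the lipid droplet protein PLIN2 differed by 0.18, the transcription factor CEBPA by -0.15 and the adipokine CFD by -0.14. None of the 12 measured Wnt and beta-catenin target genes was called (median -0.03). Among them NKD1 differed by -0.09, ZNRF3 by -0.08 and TCF7L2 by -0.03. The matrix, adipocyte and Wnt lists also hold dim genes, which were not named for their differences. Examples by their mean are MATN2 (2.82), MFAP5 (3.17), EBF2 (3.83), LPL (4.44), LEF1 (3.64) and BMP4 (4.11). For such genes the absence of a call says little, and the list medians include them. With Pu9- and with Pu5-, 0 genes of each of these lists were called for the mean of times, where 6 and 29 of all 18132 genes were.

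Of the genes beside CCDC80 on chromosome 3, none was called over the mean of times with any of the 3 oligonucleotides, and BTLA was called at 72 h with Pu27. The 3 measured neighbours on each side were BTLA, ATG3 and SLC35A5 toward lower coordinates and CD200R1L, CD200R1 and GTPBP8 toward higher ones. With Pu27 their mean differences from untreated cells were 0.14, -0.02 and 0.09, and -0.05, -0.08 and -0.09, with limma adjusted p from 0.363 to 0.97. BTLA, CD200R1L and CD200R1 were dim, with group means of 3.88 to 4.28, 3.55 to 3.91 and 3.35 to 3.7. The median of the background control probe sets was 3.16, so for these genes the absence of a call says little. At 72 h BTLA, a receptor of lymphocytes, rose with Pu27 by 0.40 (limma adjusted p = 0.0444), from 3.88 to 4.28, and differed by 0.39 with Pu9- (adjusted p = 0.0988) and by 0.08 with Pu5- (adjusted p = 0.926). It was the only one of the 6 neighbours called at 72 h, where 4.46% of all genes were called with Pu27, 0.833% with Pu9- and 0.496% with Pu5-. The nearest, SLC35A5, a nucleotide sugar transporter gene 11218 bp away, ran only from 8.07 to 8.40 over the 13 group means. MYC, whose promoter element the oligonucleotides resemble, was compared with untreated cells over the mean of times. It differed by -0.17 ± 0.06 with Pu27 (limma adjusted p = 0.173). With Pu9- it differed by -0.04 (adjusted p = 0.928) and with Pu5- by -0.06 (adjusted p = 0.813).

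**Figure D4:**
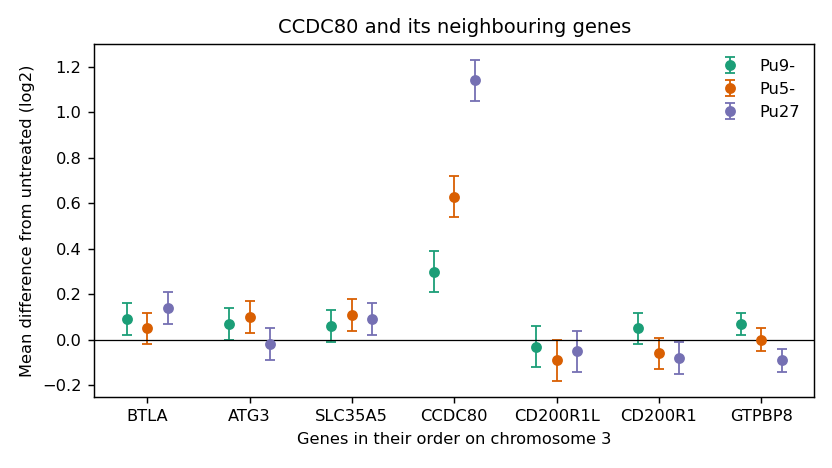
Mean of the 3 time-matched differences from untreated cells (log2, vertical axis) for CCDC80 and the 3 measured genes on each side in their order on chromosome 3 (horizontal axis), with bars for 1 SE. CCDC80 is at 0.30, 0.63 and 1.14 with Pu9-, Pu5- and Pu27, and no neighbour exceeds 0.14.

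Of 19 measured monocytic markers 15 lay above the mean array median of 5.90, and their mean level ran from 8.15 to 8.44 over the groups. CD14 (3.46), CSF1R (5.63), SPI1 (5.29) and MPO (4.85) lay below it. Of 10 fibroblast markers 1 lay above it (FAP, 7.61). LUM, TWIST1, COL3A1 and DCN had the lowest levels, 2.65, 3.34, 3.57 and 3.74. PDGFRA (4.2), THY1 (4.75), COL1A1 (4.98), COL1A2 (4.98) and PDGFRB lay between these and the array median. The background control probe sets had a median of 3.16, but their means ran from 2.48 to 10.32, so they set no sharp floor. The fibroblast list's mean at 72 h was 4.46 in untreated, 4.43 in Pu9-, 4.48 in Pu5- and 4.63 in Pu27 cells. Of 7 adipocyte markers 3 lay above the array median, with a list mean of 5.57 to 5.80. Of 8 epithelial markers 1 lay above it, of 7 measured T cell markers 0, and of 5 measured B cell markers 3. The B cell list, with PAX5 at 9.13 and BLNK at 7.0, had its lowest mean in untreated cells at 24 h (5.97). Its highest was with Pu27 at 72 h (6.65), where untreated cells had 6.51. The difference between the 3' and 5' control probe sets of ACTB, a sign of RNA quality, was highest with Pu27 at 72 h (2.24 ± 0.08, SD, n = 3) and was 2.05 ± 0.07 in untreated cells at that time. Its part in the result was not tested beyond its use as a covariate, with which Pu27 minus untreated at 72 h was 1.80 in 11758224_s_at.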

How the data were processed

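The deposited values are log2 expression values made by the authors with RMA, per the submitters' processing notes, which also name limma; their versions and settings were not given there. RMA corrects background, equalises the arrays' distributions and summarises the probes of a probe set, so small differences of dim probe sets are compressed and a change in total RNA is not measured. The 6 CCDC80 probe sets and the lists were chosen with earlier results of these data known.

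The 39 columns were assigned to samples through the sample titles, and control probe sets were left out (49293 remained; 44988 had a single symbol, for 18132 genes). One linear model with a mean for each of 13 groups was fitted to all probe sets with limma 3.58.1 in R 4.3.3 (26 residual and 7.19 prior degrees of freedom), with Benjamini-Hochberg adjustment over all probe sets within a comparison and a threshold of 0.05. The brightest CCDC80 probe set by its mean over all arrays stood for the gene. The fit was tested on simulated data. The number of arrays, 3 per group, limits the precision. For gene lists, neighbours and genes most alike, the brightest probe set of a gene was used. The genes named are the 5 most and 3 least correlated with CCDC80 and the 3 neighbours on each side. The correlated genes were taken from those with a group mean of at least 6 and a range of at least 0.8. In each list the 3 largest Pu27 differences among genes with a group mean of at least 6 were named. The DUDES-domain relatives SRPX and SRPX2 were named whatever their level. Alternatives were 1 probe set per gene, the compared groups alone, dim probe sets left out, a common array median, a trended robust prior, the replicate number as a block, the ACTB difference as a covariate, each other CCDC80 probe set, and arrays left out. Same-numbered arrays correlated above 0.1 in every pair in 12 of 21 comparisons (-0.24 to 0.53 in all). Promoter sequences are RefSeq's, GRCh38.p14.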

Additional observations from a re-analysis of the deposited data

How the results depend on the processing

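With all arrays and the brightest probe set kept, none of 189 recomputed differences changed sign, and 5 of 117 tested values changed their side of the threshold (3 gained and 2 lost a call). Untreated 48 h minus 0 h stayed at 0.52 and passed with 1 probe set per gene (limma adjusted p = 0.0459), with dim probe sets left out (0.0425) and with the replicate number as a block (0.0398). The replicate block changed no other call, and the same-numbered arrays of that comparison did not correlate above 0.1. Fitting the compared groups alone left 0.66 for Pu9- at 72 h (adjusted p = 0.33) and 1.04 for Pu5- at 72 h (0.0955), with fewer samples behind the spread. By Spearman correlation 3 of the 5 genes most alike remained among the top 5.

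With arrays left out, 9 of 315 differences took the opposite sign and 9 of 213 tested values changed their side of the threshold, each losing a call. Leaving out 1 array at a time gave 0.56 to 0.78 for Pu9- at 72 h, 0.95 to 1.17 for Pu5- at 72 h and 0.59 to 0.70 for the Pu5- mean, and leaving out all arrays of 1 number gave 0.59 to 0.74, with 0.97 to 1.15 for Pu5- at 72 h, 0.59 to 0.68 for the Pu5- mean and 1.65 to 2.0 for Pu27 at 72 h. Differences near 0 changed sign: Pu9- at 48 h ranged from -0.05 to 0.11, untreated 72 h minus 0 h from -0.09 to 0.20, Pu27 minus Pu5- at 24 h from -0.22 to 0.30 and Pu9- minus Pu5- at 24 h from -0.56 to 0.05. Leaving out 1 array also moved Pu9- minus untreated at 24 h between 0.05 and 0.37 and Pu27 minus Pu9- at 24 h between 0.14 and 0.47.

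With another CCDC80 probe set in place of the brightest, 39 of 135 differences took the opposite sign and all 15 calls, of 85 tested values, were lost; the cause was not tested. The values below are log2 differences at 24, 48 and 72 h and for the mean of times, in that order. In 11748618_a_at the differences were, for Pu27 minus untreated -0.02, 0.23, 0.88 and 0.36, for Pu9- minus untreated -0.02, -0.01, 0.26 and 0.08, for Pu5- minus untreated 0.11, 0.08, 0.13 and 0.11. Between oligonucleotides they were, for Pu27 minus Pu9- 0.00, 0.24, 0.62 and 0.29, for Pu27 minus Pu5- -0.13, 0.15, 0.75 and 0.26, for Pu9- minus Pu5- -0.13, -0.09, 0.13 and -0.03. Against 0 h the untreated values there were -0.19, 0.00 and -0.19, and F was 1.47 for Pu9- and 0.04 for Pu5-. In 11716932_a_at the differences were, for Pu27 minus untreated -0.07, -0.07, 0.02 and -0.04, for Pu9- minus untreated 0.00, -0.05, -0.07 and -0.04, for Pu5- minus untreated -0.01, -0.01, -0.05 and -0.03. Between oligonucleotides they were, for Pu27 minus Pu9- -0.07, -0.02, 0.09 and 0.00, for Pu27 minus Pu5- -0.06, -0.05, 0.08 and -0.01, for Pu9- minus Pu5- 0.01, -0.04, -0.01 and -0.01. Against 0 h the untreated values there were -0.17, -0.19 and -0.21, and F was 0.11 for Pu9- and 0.06 for Pu5-. In 11716934_a_at the differences were, for Pu27 minus untreated 0.28, 0.49, 1.17 and 0.65, for Pu9- minus untreated 0.17, 0.10, 0.35 and 0.21, for Pu5- minus untreated 0.00, 0.10, 0.61 and 0.24. Between oligonucleotides they were, for Pu27 minus Pu9- 0.11, 0.39, 0.82 and 0.44, for Pu27 minus Pu5- 0.28, 0.39, 0.56 and 0.41, for Pu9- minus Pu5- 0.16, 0.00, -0.27 and -0.03. Against 0 h the untreated values there were -0.18, 0.15 and 0.00, and F was 0.62 for Pu9- and 4.11 for Pu5-. In 11751791_a_at the differences were, for Pu27 minus untreated 0.28, 0.57, 1.12 and 0.66, for Pu9- minus untreated 0.13, 0.09, 0.28 and 0.17, for Pu5- minus untreated -0.04, 0.13, 0.58 and 0.22. Between oligonucleotides they were, for Pu27 minus Pu9- 0.15, 0.48, 0.84 and 0.49, for Pu27 minus Pu5- 0.33, 0.44, 0.55 and 0.44, for Pu9- minus Pu5- 0.18, -0.04, -0.30 and -0.06. Against 0 h the untreated values there were -0.13, 0.17 and 0.01, and F was 0.33 for Pu9- and 3.29 for Pu5-. In 11716933_a_at the differences were, for Pu27 minus untreated -0.05, -0.01, 0.11 and 0.02, for Pu9- minus untreated -0.02, -0.13, 0.02 and -0.04, for Pu5- minus untreated 0.00, -0.06, 0.02 and -0.01. Between oligonucleotides they were, for Pu27 minus Pu9- -0.03, 0.11, 0.09 and 0.06, for Pu27 minus Pu5- -0.05, 0.05, 0.09 and 0.03, for Pu9- minus Pu5- -0.02, -0.06, 0.01 and -0.03. Against 0 h the untreated values there were -0.12, -0.14 and -0.28, and F was 0.33 for Pu9- and 0.09 for Pu5-.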
